A study of Mus musculus with 40 samples.

Results

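The genes described here are 9 genes of rod phototransduction, Gnat1, Pde6a, Pde6b, Pde6g, Cnga1, Cngb1, Sag, Rcvrn and Nrl, found by symbol among the 42037 gene symbols of the deposited tables. All 9 passed the filter on low counts, which left 23495 genes for testing, and the lowest count of any of them in any library was 2557. They were measured by RNA-seq in 40 libraries, each made from 1 whole retina of a C57BL/6J mouse, in 10 groups of 4 retinas taken at postnatal day 17 (P17) or 19 (P19). Each age had 1 group of control retinas (labelled nOIR) and 4 groups with oxygen-induced retinopathy (OIR). For this model pups breathe 75% oxygen between P7 and P12. Vessels of the central retina are then lost, and after the return to room air new vessels grow abnormally. Each eye of the OIR groups received 1 µl of antibody into the vitreous at P14. The antibody was control IgG at 0.4 µg/µl, anti-VEGFA (clone B20.4.1) at 0.2 µg/µl, anti-ANG2 (clone LC10) at 0.2 µg/µl, or a bispecific antibody that joins the 2 clones at 0.4 µg/µl. VEGFA and ANG2 (angiopoietin-2) are secreted proteins that act on blood vessels. The labels do not say whether control eyes were injected, nor which retinas came from the same mouse or litter, so a comparison of OIR with control retinas also holds any effect of injection and IgG.

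Rods are the photoreceptors of dim light and the most numerous neurons of the mouse retina. Light absorbed by the rod pigment activates transducin, whose rod alpha subunit is Gnat1. Transducin then relieves the inhibitory subunit Pde6g from the catalytic subunits Pde6a and Pde6b of the cGMP phosphodiesterase, cGMP falls, and the cGMP-gated cation channel built from Cnga1 and Cngb1 closes. Sag (rod arrestin) serves to end the response, and Rcvrn (recoverin) is a calcium sensor that acts on rhodopsin kinase. Nrl is the transcription factor that directs photoreceptor precursors to the rod fate and, with Crx, drives many of these genes.

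The 9 genes were abundant in every retina and together took between 3.46% and 5.88% of the TPM of a library (mean 4.37%, SD 0.51, n = 40). TPM is the abundance of a transcript after division by its length, scaled to the same total in every library, and it is the scale on which different genes can be compared. On that scale Pde6g stood highest, at 15827 TPM on average over the 40 retinas (SD 2420), followed by Sag at 10279 (SD 1448), Gnat1 at 9839 (SD 1750) and Rcvrn at 5129 (SD 641). Pde6b averaged 1152 TPM (SD 232) and Cngb1 693 TPM (SD 89.9), whereas Cnga1 (340 TPM, SD 46.3), Nrl (325 TPM, SD 50.9) and Pde6a (108 TPM, SD 30) were lowest. Within the phosphodiesterase, then, the inhibitory subunit had far more transcript than the 2 catalytic subunits, and Pde6b more than Pde6a in every library (lowest Pde6b value 722 TPM, highest Pde6a value 181 TPM).

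Values below are CPM, counts scaled to library size with TMM factors that adjust for the make-up of a library, and errors are SDs over the 4 retinas of a group. Gnat1 ran from 10581 ± 1177 CPM in control retinas at P17 to 21796 ± 3778 CPM in anti-ANG2 retinas at P19. Between them, from low to high, came anti-ANG2 at P17 (12354 ± 1665), IgG at P17 (14287 ± 1022), bispecific at P17 (14445 ± 3836), anti-VEGFA at P17 (14939 ± 2647), IgG at P19 (15099 ± 1898), anti-VEGFA at P19 (16150 ± 1199), control at P19 (18671 ± 1447) and bispecific at P19 (18920 ± 5175). Every group in this order overlapped its neighbour, while groups farther apart could be free of overlap, such as control at P17 (9080 to 11588 CPM) and anti-ANG2 at P19 (19758 to 27458 CPM). For neighbours the same was true of the other 8 genes, with 0 of 81 neighbouring pairs of groups free of overlap on the CPM scale. On this scale anti-ANG2 retinas at P19 had the highest mean of 7 of the 9 genes, and control retinas at P17 the lowest mean of 7. The exceptions at the top were Pde6a and Pde6b, which were highest in control retinas at P19. On the TPM scale 2 of 81 neighbouring pairs did not overlap, and both set control retinas at P19 above the group with the next mean, for Pde6a (170 ± 11 TPM) and Pde6b (1574 ± 134 TPM). One control retina at P17, replicate 3, reached into their range, at 158 TPM for Pde6a and 1617 TPM for Pde6b, against lows of 157 and 1393 TPM at P19. The order by group differed on this scale. Anti-ANG2 retinas at P19 had the highest mean of 3 genes (Pde6g, Rcvrn and Nrl), control retinas at P19 of 3, bispecific retinas at P19 of 2 and anti-VEGFA retinas at P19 of 1. The lowest mean was that of anti-ANG2 retinas at P17 for 5 genes and that of control retinas at P17 for 1 (Pde6g), of control retinas at P19 for 1 (Cnga1), of anti-VEGFA retinas at P19 for 1 (Pde6a) and of anti-ANG2 retinas at P19 for 1 (Pde6b).

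**Figure D1:**
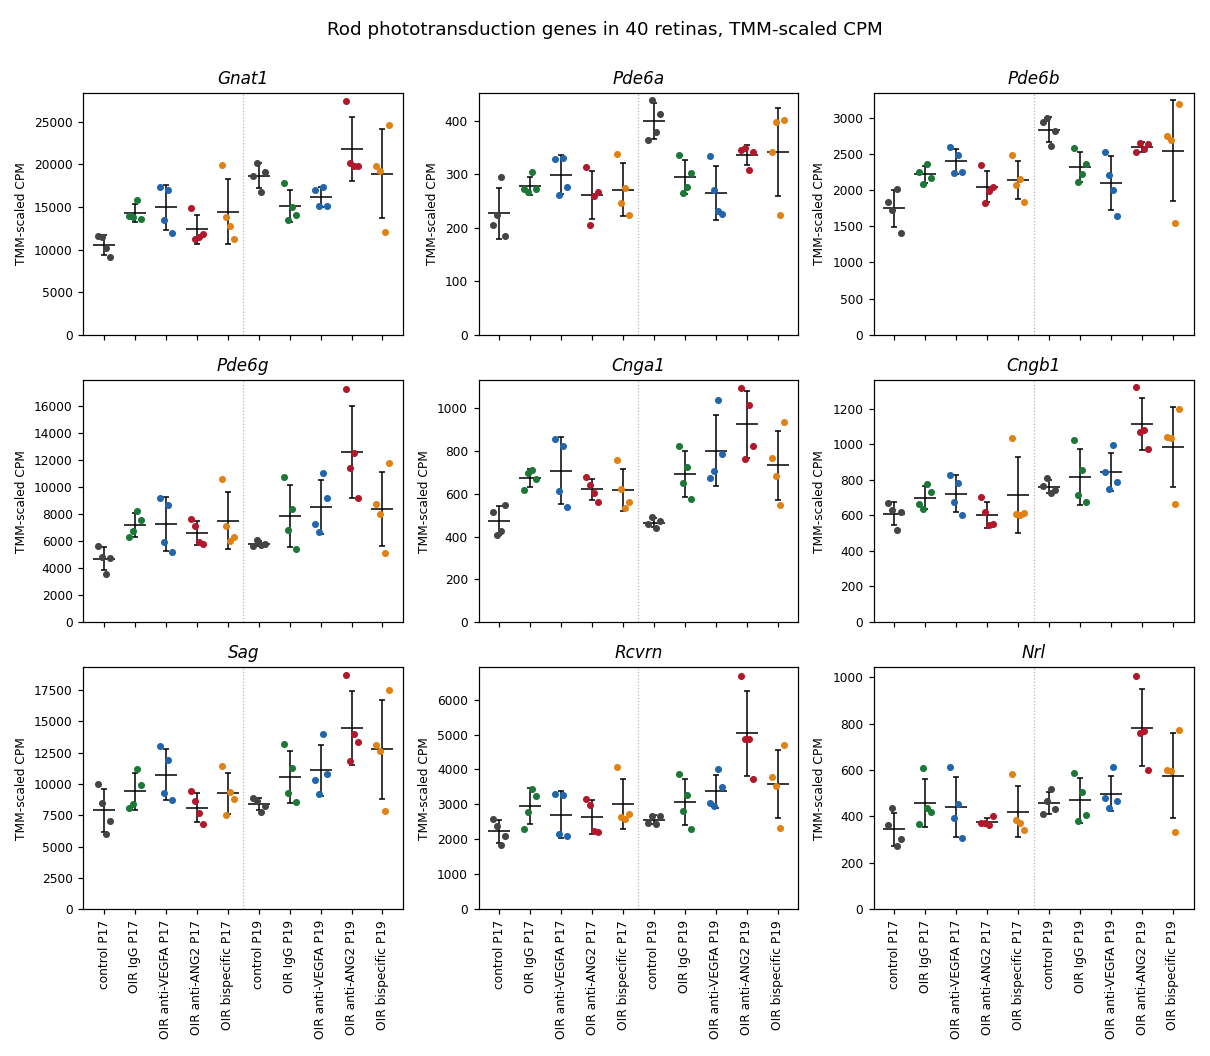
Level of each of the 9 rod genes in every retina (TMM-scaled CPM, axes from 0), with dots for single retinas and bars for the mean and SD of the 4 retinas of a group. P17 groups are left of the dotted line and P19 groups right of it. Anti-ANG2 retinas at P19 have the highest mean for 7 genes, whereas control retinas at P19 are highest for Pde6a and Pde6b.

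**Figure D2:**
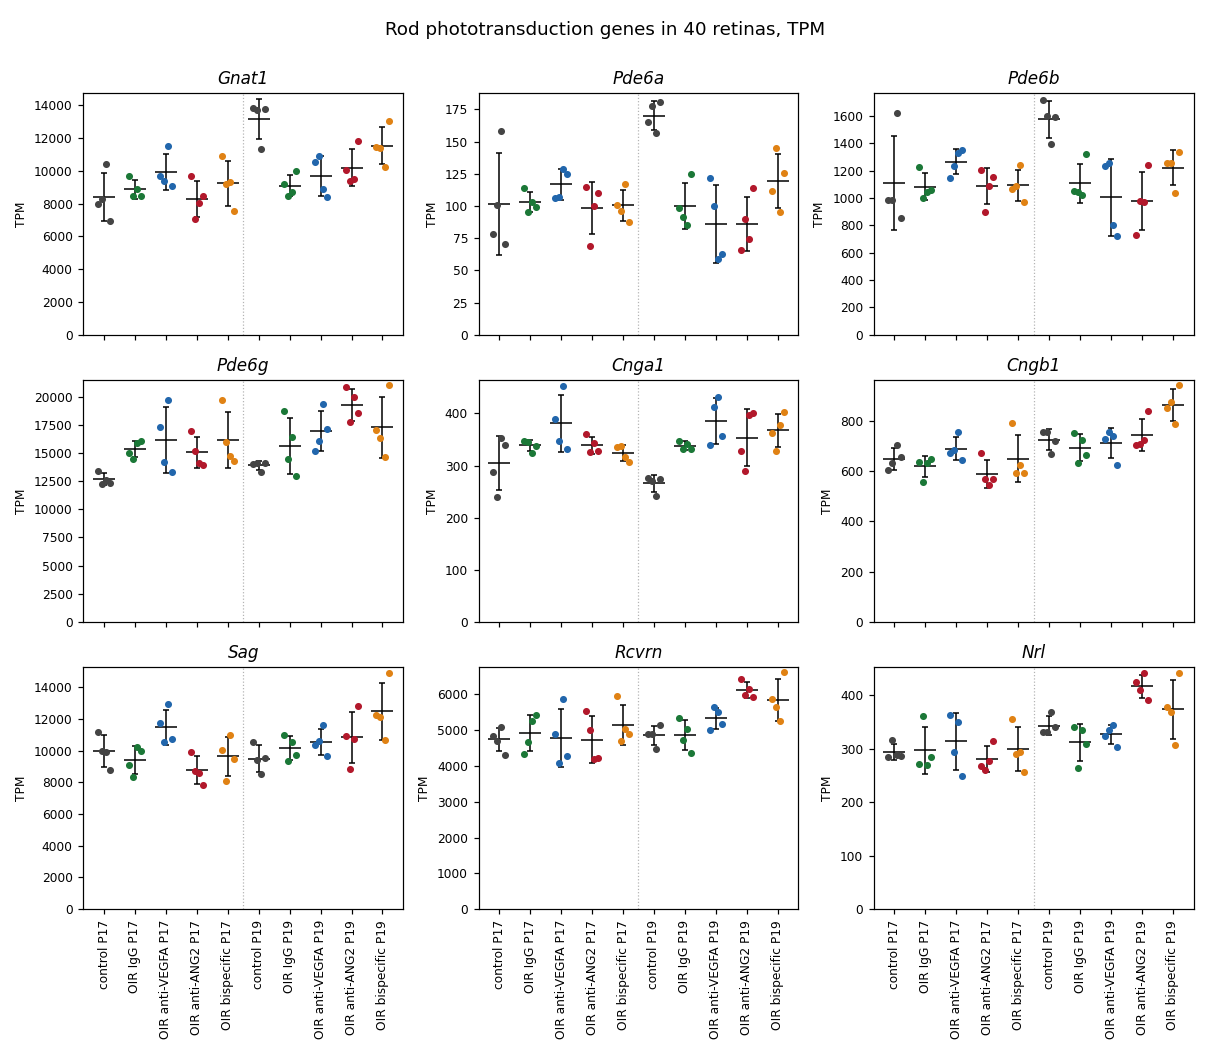
The same retinas on the TPM scale, which is the length-scaled share of transcripts that the authors deposited (axes from 0, bars are mean and SD of 4 retinas). Pde6a and Pde6b in control retinas at P19, at 170 and 1574 TPM on average, have the highest means, and control replicate 3 at P17 (158 and 1617 TPM) reaches into their range.

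The first question was how the rod genes changed with age in control retinas. From P17 to P19, 3 of the 9 genes rose, Gnat1, Pde6a and Pde6b, against a background of 0.0979% of all tested genes called (23 genes, 0.0638% higher; edgeR's quasi-likelihood test, Benjamini-Hochberg adjusted p under 0.05). Gnat1, the transducin subunit, was at 11588, 11448, 10208 and 9080 CPM in the 4 retinas at P17 and at 18633, 20170, 16722 and 19158 CPM at P19. All 4 older retinas were above all 4 younger ones, as in 3.23% of all genes, and the rise was 1.76-fold (log2 0.82, SE 0.17, adjusted p = 0.027). Pde6a was at 205, 223, 295 and 184 CPM at P17 and at 365, 439, 379 and 413 CPM at P19. It also separated the ages without overlap and rose 1.76-fold (log2 0.82, SE 0.16, adjusted p = 0.016). Its partner Pde6b was at 1833, 1731, 2023 and 1412 CPM and then at 2938, 2993, 2614 and 2813 CPM, again without overlap (1.62-fold, log2 0.70, SE 0.15, adjusted p = 0.035).

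The inhibitory subunit of the same enzyme did not pass the test. Pde6g was at 5631, 4837, 3528 and 4720 CPM at P17 and at 5601, 6078, 5709 and 5780 CPM at P19 (log2 0.31, 95% interval -0.14 to 0.75, adjusted p = 1). The remaining 5 genes lay between log2 -0.03 for Cnga1 (interval -0.35 to 0.29) and 0.41 for Nrl (interval 0 to 0.83), and none was called. Among 15 partners of the rod cascade, 14 had positive changes (median log2 0.34, against -0.02 over all genes) and 1 was called. That gene, Guca1b, which activates retinal guanylate cyclase when calcium falls, rose from 1235 ± 110 to 2112 ± 152 CPM (1.71-fold, edgeR adjusted p = 0.049), but was called in 0 of the 8 fits that leave out 1 library (adjusted p from 0.063 to 0.34). None of 15 genes of outer segment structure and visual cycle was called by edgeR (8 at an unadjusted p under 0.05, which 6.01% of all genes reached), and of 8 photoreceptor transcription factors only Mef2c was, from 26.7 ± 6.41 to 51.3 ± 6.58 CPM (1.92-fold, edgeR adjusted p = 0.0028).

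The 3 calls in control retinas rested on few libraries. Without P17 replicate 1 or 4, or without P19 replicate 2 or 4, 0 of the 9 were called, and without P19 replicate 1 only Pde6a was (log2 changes of the 3 genes between 0.61 and 0.96 over all 8 fits that leave out 1 library). Summed CPM of 13 markers of the pigment epithelium, the layer behind the photoreceptors, ran from 324 to 632 at P17 and from 517 to 1477 at P19, with no marker at 0 in either group. TMM factors were 1.06 to 1.28 at P17 and 0.984 to 1.04 at P19, and mitochondrial transcripts took 3.05% to 5.09% and then 5.24% to 5.76% of counts. All 8 bipolar cell genes had negative changes (median log2 -0.38, none called), and their summed level was 1267 to 1578 CPM at P17 and 925 to 1138 CPM at P19. Apart from the fit given next and the alternative fits given at the end, the part of these measures in the result was not tested. With the levels of pigment epithelium and lens markers as covariates the changes were 0.79 for Gnat1, 0.79 for Pde6a and 0.66 for Pde6b on the log2 scale, and none was called (adjusted p = 0.078, 0.054 and 0.11). DESeq2 called the same 3 genes, among 142 of the 23495 genes tested. Limma on log2(TPM + 1) called Gnat1 and Pde6a, among 126 genes. In whole-retina RNA, fewer cells of a type and less RNA per cell cannot be told apart, here and in what follows.

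**Figure D3:**
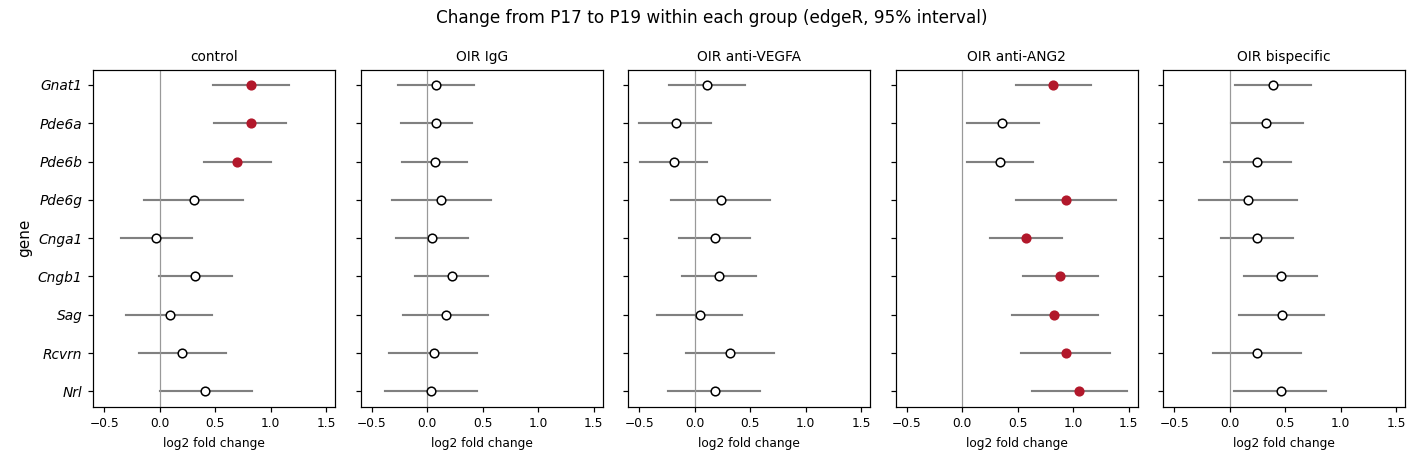
Change of each rod gene from P17 to P19 within each group, as log2 fold change with its 95% interval (edgeR); filled red points passed an adjusted p under 0.05, open points did not. Control retinas hold 3 filled points, for Gnat1, Pde6a and Pde6b, and anti-ANG2 retinas hold 7, for every gene but Pde6a and Pde6b.

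In OIR retinas given IgG the same 2 days brought no called change. All 9 log2 changes were positive but small, from 0.03 to 0.22, and none reached an unadjusted p under 0.05 in edgeR (background 4.69%, with 0.00851% called; DESeq2 and limma on TPM also called none of the 9). For Gnat1 the interval was -0.26 to 0.42, for Pde6a -0.24 to 0.40 and for Pde6b -0.23 to 0.36. The IgG age change minus the control age change was tested as an interaction. It was -0.74 for Gnat1 (SE 0.24, unadjusted p = 0.0035), -0.73 for Pde6a (SE 0.23, unadjusted p = 0.0023) and -0.63 for Pde6b (SE 0.21, unadjusted p = 0.0044) on the log2 scale, and edgeR's adjusted p was 0.68 for each. The interaction therefore called 0 of 9 rod genes, with 3 at an unadjusted p under 0.05 (background 0.00426% called, 5.68% at that unadjusted p), and DESeq2 called 0 as well. In anti-VEGFA retinas the age changes ran from -0.19 to 0.32 with none called or at an unadjusted p under 0.05 in edgeR (background 0% called, 9.11% at that unadjusted p, DESeq2 0). In bispecific retinas they ran from 0.16 to 0.47 with none called in edgeR, 5 at an unadjusted p under 0.05 (background 0.0298% called, 5.78% at that unadjusted p) and 0 called by DESeq2. Limma on TPM called 1, Cngb1, among 28 genes in all. Y-linked transcripts were at 0.61 to 215 CPM in IgG retinas at P17 and 186 to 219 CPM at P19. The ranges were 196 to 278 and then 0 to 245 CPM in anti-VEGFA retinas, and 0 to 200 and then 0 CPM in bispecific retinas. Control retinas had 1.34 to 159 and then 0.56 to 186 CPM. Age and sex thus cannot be fully told apart in these OIR groups.

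The largest number of called rod genes came from the anti-ANG2 retinas, where 7 of 9 rose from P17 to P19, against 4.83% of all tested genes called and 3.32% called higher. Nrl, the rod fate factor, was at 373, 370, 362 and 402 CPM at P17 and at 1005, 760, 767 and 599 CPM at P19. It rose 2.08-fold with no overlap, as 5.78% of all genes did in this direction (log2 1.05, SE 0.21, adjusted p = 0.0041). Rcvrn was at 3145, 2972, 2243 and 2213 CPM and then at 6679, 4872, 4877 and 3729 CPM, 1.91-fold higher (log2 0.93, SE 0.20, adjusted p = 0.0063). Pde6g went from 7593, 7097, 5953 and 5771 CPM to 17214, 11404, 12508 and 9192 CPM, 1.90-fold higher (log2 0.93, SE 0.22, adjusted p = 0.011). In each of these genes P19 replicate 1 was the highest retina of its group.

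Gnat1 rose in the same retinas from 14828, 11260, 11519 and 11807 CPM to 27458, 20164, 19806 and 19758 CPM (1.76-fold, log2 0.82, SE 0.17, adjusted p = 0.0054). The channel subunit Cngb1 rose from 701, 619, 543 and 550 to 1320, 1071, 1083 and 975 CPM (1.84-fold, log2 0.88, SE 0.17, adjusted p = 0.0032). Its partner Cnga1 rose less, from 678, 641, 605 and 563 to 1098, 765, 1016 and 825 CPM (1.49-fold, log2 0.57, SE 0.16, adjusted p = 0.029). All 3 separated the ages without overlap. Sag rose 1.78-fold (8104 ± 1136 to 14447 ± 2953 CPM, log2 0.83, adjusted p = 0.0089). The catalytic subunits were the 2 that did not pass. Pde6a went from 314, 205, 259 and 266 to 346, 350, 308 and 341 CPM, with overlap (log2 0.36, interval 0.04 to 0.69, adjusted p = 0.20), and Pde6b from 2342, 1822, 1986 and 2047 to 2523, 2658, 2568 and 2640 CPM, without overlap (log2 0.34, interval 0.04 to 0.64, adjusted p = 0.19).

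Other photoreceptor genes rose in the anti-ANG2 retinas as well. Of the 15 partners of the rod cascade 11 were called higher and 0 lower (median log2 0.65, against -0.05 over all genes). They included Guca1a, another guanylate cyclase activator (554 ± 39.5 to 1594 ± 393 CPM, 2.88-fold, adjusted p = 0.0015), Guca1b (1445 ± 120 to 2988 ± 524 CPM, 2.07-fold) and Unc119, a lipid-binding chaperone for transducin (2312 ± 232 to 4509 ± 1060 CPM, 1.95-fold). Of 15 genes of outer segment structure and visual cycle 7 were called higher, among them Prph2, a scaffold of the disc rim (1.78-fold), Fscn2, an actin bundler (2.16-fold), and Rdh8, a retinal-reducing enzyme (2.59-fold from 6.96 ± 1.97 CPM). Of 8 transcription factors 1 was called, Nr2e3, which represses cone genes in rods (1.64-fold). The cone list had 4 of 10 called higher, with Gngt2 at 2.19-fold, Pde6h at 2.18-fold and Arr3 (cone arrestin) at 1.69-fold. Of 8 bipolar cell genes, which mark the neurons that receive photoreceptor signals, 3 were called lower, against 1.51% of all genes. They were Grm6, at 0.404 of the P17 level, Trpm1 at 0.439 and Isl1 at 0.66. The summed bipolar level was 935 to 1242 CPM at P17 and 506 to 797 CPM at P19. Bipolar calls were not counted in the fits that leave out 1 library. The counts of the other lists rested largely on P19 replicate 1. Without it 3 partners, 3 outer segment genes, 0 transcription factors and 0 cone genes were called, and 67 genes in all in place of 1135. Over the 8 fits that leave out 1 library the ranges were 3 to 11, 3 to 8, 0 to 4 and 0 to 4, and 67 to 2304 for all genes.

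Several measures of the libraries moved with this result, and apart from the fits at the end of this paragraph their part in it was not tested. TMM factors were 1.03 to 1.07 at P17 and 0.743 to 0.986 at P19. Mitochondrial transcripts took 4.47% to 5.98% of counts at P17 and 6.45% to 10.6% at P19. The median log2 change was 0.29 over the 4819 genes with the shortest transcripts and -0.24 over the 4815 with the longest, out of 4 classes by length. Over all 40 libraries the TMM factor and the mean log2 CPM of the 9 genes had a Pearson r of -0.87, given as a description, since both share the library make-up. Y-linked transcripts were at 0 CPM in all 4 anti-ANG2 retinas at P17 and between 0.299 and 164 CPM at P19. The 11 lens crystallins summed to 10.9 to 5614 CPM at P17 and 17 to 132 CPM at P19 (median log2 -4.95, 0 called, all 11 at an unadjusted p under 0.05, which 18.2% of all genes reached). With Y-linked counts as a covariate, 4 of the 9 were called (Cngb1, Gnat1, Nrl and Rcvrn), which was also the number without P17 replicate 4. Without P19 replicate 1, whose TMM factor was the lowest of all 40, 2 were called, Cngb1 and Nrl. Further fits took pigment epithelium and lens covariates, or RLE in place of TMM factors. Another left out the 3 libraries with TMM factors under 0.8 or over 1.2. Over all 10 alternatives other than leaving out 1 library, 4 to 8 of the 9 were called.

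The scale mattered for the catalytic subunits. On log2(TPM + 1), tested with limma, the median of all genes moved by -0.30 between the anti-ANG2 ages, and of all genes called only 4.25% were higher, against 68.7% in edgeR. On that scale 3556 of the 23495 genes tested were called. Of the 9 rod genes 5 were still called higher, Nrl (0.57), Rcvrn (0.38), Pde6g (0.36), Cngb1 (0.34) and Sag (0.30). Pde6a and Pde6b turned to -0.19 and -0.17, which is 0.11 and 0.14 above the median of all genes. Gnat1 was at 0.30 and Cnga1 at 0.05, neither called. The age change in anti-ANG2 retinas was also set against that in IgG retinas, in a test added after the data had been seen. All 9 differences were positive, from log2 0.28 (Pde6a and Pde6b) to 1.02 (Nrl), but edgeR called none (adjusted p from 0.27 to 0.69, 7 at an unadjusted p under 0.05, background 0% called and 11% at that unadjusted p). Limma on TPM called none, and DESeq2 called 4, Cngb1, Gnat1, Nrl and Rcvrn, among 149 genes in all.

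OIR itself was compared with control retinas at each age. At P17, edgeR called 0 of the 9 rod genes, where 2.36% of all genes were called. An unadjusted p under 0.05 was reached by 5 of the 9 and by 15.7% of all genes. DESeq2 and limma on TPM also called 0. All 9 log2 changes were positive in edgeR (median 0.41, range 0.20 to 0.62, against -0.05 over all genes). TMM factors were 1.06 to 1.28 in control and 0.941 to 1.01 in IgG retinas at P17. The median log2 change was 0.11 over the shortest class of transcripts and -0.13 over the longest. Apart from the alternative fits given at the end, the part of these measures in the result was not tested. Cnga1 had the smallest p, with 516, 409, 427 and 547 CPM in control retinas and 617, 697, 713 and 668 CPM in IgG retinas (log2 0.50, interval 0.18 to 0.83, adjusted p = 0.084). The groups did not overlap for Cnga1, Gnat1, Pde6b and Pde6g, 4 of 9, where 6.82% of all genes were higher without overlap. On log2(TPM + 1) the direction of 2 genes turned, Cngb1 (-0.07) and Sag (-0.08), while the median of all genes was -0.22. Of the partners, Gnb1, the transducin beta subunit, was 1.57-fold higher in OIR (2487 ± 460 against 3893 ± 324 CPM, edgeR adjusted p = 0.041, called in 2 of 8 fits that leave out 1 library), and Impg2, a proteoglycan of the matrix around photoreceptors, 1.56-fold higher (adjusted p = 0.011, called in 6 of those 8 fits). The cone list had 3 of 10 called higher, among them the cone phosphodiesterase subunits Pde6c (1.69-fold) and Pde6h (1.87-fold). Pigment epithelium markers summed to 1008 to 1962 CPM in IgG retinas against 324 to 632 CPM in control retinas. Lens crystallins summed to 14.1 to 3956 CPM against 5.1 to 9.16 CPM (median log2 8.6, 1 of 11 called, all 11 at an unadjusted p under 0.05). The 10 markers of microglia and macrophages summed to 336 to 552 CPM against 96.4 to 176 CPM, with 9 called higher (median log2 1.88). With pigment epithelium and lens levels as covariates, 0 partners, 0 outer segment genes and 0 cone genes were called, and the part of the microglia was not tested.

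At P19 the rod genes did not share a direction in OIR. Pde6a was at 365, 439, 379 and 413 CPM in control retinas and at 337, 265, 276 and 302 CPM in IgG retinas, all 4 lower (log2 -0.44, interval -0.76 to -0.11, adjusted p = 0.19). Pde6b was at 2938, 2993, 2614 and 2813 CPM against 2578, 2107, 2228 and 2365 CPM, again all lower (log2 -0.29, interval -0.59 to 0.01, adjusted p = 0.42). Cnga1 went the other way, from 460, 490, 440 and 472 CPM to 825, 650, 725 and 575 CPM, all higher (log2 0.58, interval 0.25 to 0.90, adjusted p = 0.072). Without overlap, 4.35% of all genes were lower and 6.64% higher. Gnat1 had a negative change (-0.31, interval -0.65 to 0.03) and the other 5 genes changes from 0.04 to 0.44, of which Cngb1 and Nrl turned to -0.06 and -0.14 on log2(TPM + 1).

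No rod gene was called at P19 in edgeR, where 0.919% of all genes were called. An unadjusted p under 0.05 was reached by 2 rod genes, Pde6a and Cnga1, and by 12.6% of all genes. This count depended on the tool. DESeq2 called Cnga1 higher (log2 0.54, adjusted p = 0.036), and limma on log2(TPM + 1) called Gnat1 (-0.53, adjusted p = 0.0045) and Pde6a (-0.78, adjusted p = 0.034) lower, with a median of all genes of -0.15. Of the 23495 genes tested DESeq2 called 516 and limma 355. Without IgG replicate 4, edgeR called Cnga1 (0.66, adjusted p = 0.036). None of the partner, outer segment or transcription factor genes was called in edgeR at P19, with 2 of 15, 5 of 15 and 2 of 8 at an unadjusted p under 0.05. Y-linked transcripts were at 186 to 219 CPM in the IgG retinas and 0.56 to 186 CPM in the control retinas. The sexes were therefore not balanced in this comparison.

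**Figure D4:**
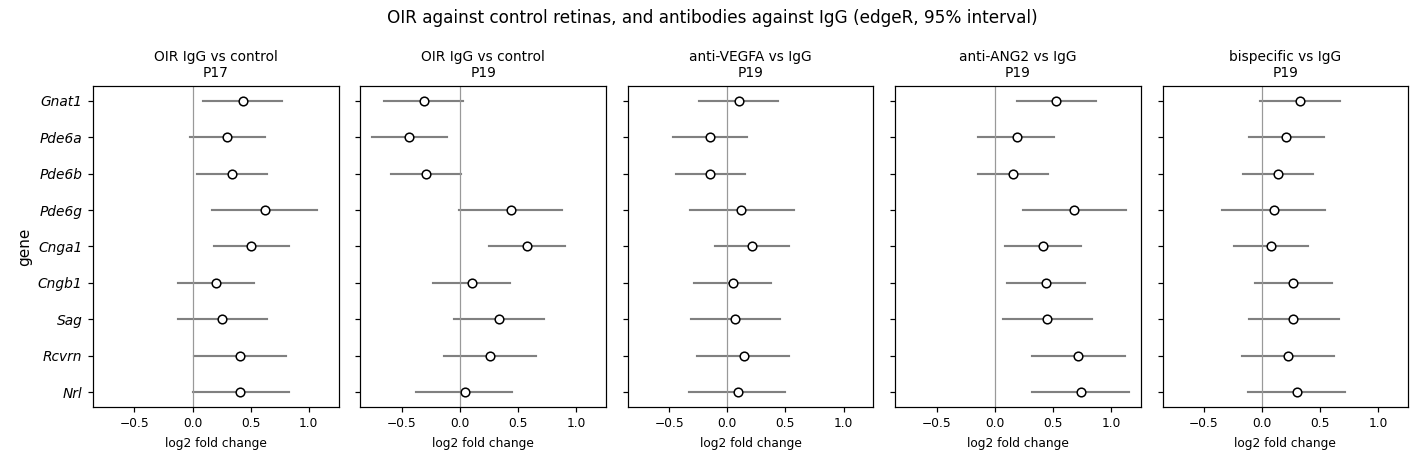
Log2 fold change of each rod gene with its 95% interval (edgeR) for OIR retinas given IgG against control at P17 and P19, and for each antibody against IgG at P19. No gene passed an adjusted p under 0.05 in these comparisons, and at P19 Pde6a (-0.44) and Cnga1 (0.58) lie on opposite sides of 0 in OIR.

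The antibodies were then compared with IgG in OIR retinas. None of the 6 comparisons called a rod gene in edgeR. At P17 the log2 changes ran from -0.12 to 0.19 for anti-VEGFA, from -0.28 to -0.10 for anti-ANG2 and from -0.13 to 0.06 for the bispecific antibody, with 0 of 9 at an unadjusted p under 0.05 in each and 0 called by DESeq2. In edgeR no gene at all was called in these 3 comparisons (0%), and the shares at an unadjusted p under 0.05 were 4.8%, 7.64% and 3.92%. DESeq2 called 2, 19 and 16 of all genes in them. At P19 they ran from -0.15 to 0.21 for anti-VEGFA (background 0% called, 11.1% at an unadjusted p under 0.05) and from 0.08 to 0.33 for the bispecific antibody (background 0.0468% called, 8.24% at an unadjusted p under 0.05). In both, 0 rod genes were at an unadjusted p under 0.05 in edgeR, and DESeq2 and limma on TPM called 0. For the bispecific antibody 2 were at an unadjusted p under 0.05 in DESeq2 and 5 in limma on TPM. For anti-VEGFA there were 0 in each. Bispecific replicate 3 at P19 stood apart from its group, with a TMM factor of 1.25 against 0.913 to 0.936 and the smallest total of the 40 libraries (9155091). Without it the bispecific changes ran from 0.20 (Cnga1) to 0.49 (Gnat1 and Nrl), with Sag at 0.45 and Pde6b at 0.31, and none was called. All 4 bispecific retinas at P19 were at 0 CPM for Y-linked transcripts and all 4 IgG retinas at 186 to 219 CPM, so an effect of the antibody and a difference between the sexes cannot be told apart in that comparison. Anti-VEGFA retinas at P19 were at 0 to 245 CPM. At P17 the values were 196 to 278 CPM with anti-VEGFA and 0 CPM with anti-ANG2, against 0.61 to 215 CPM with IgG. The sexes were thus not balanced in these comparisons either.

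Anti-ANG2 at P19 gave the widest shift, with all 9 genes positive (median log2 0.45, range 0.16 to 0.74, against 0.03 over all genes) and 7 at an unadjusted p under 0.05, but 0 called in edgeR (background 0.0979% called, 12.5% at that unadjusted p). Nrl was at 588, 379, 503 and 404 CPM with IgG and at 1005, 760, 767 and 599 CPM with anti-ANG2, without overlap (log2 0.74, interval 0.32 to 1.16, adjusted p = 0.13). Rcvrn was at 3875, 2819, 3259 and 2305 CPM against 6679, 4872, 4877 and 3729 CPM, with overlap (log2 0.72, interval 0.32 to 1.12, adjusted p = 0.13). Gnat1 was at 17785, 13505, 15028 and 14076 CPM against 27458, 20164, 19806 and 19758 CPM, without overlap (log2 0.53, interval 0.19 to 0.87, adjusted p = 0.17). Genes higher without overlap were 1.97% of all genes in this comparison.

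DESeq2 called 5 of the 9 in the same comparison, Cngb1, Gnat1, Nrl, Pde6g and Rcvrn, among 557 of the 23495 genes tested. Limma on log2(TPM + 1) called 2, Nrl (0.42) and Rcvrn (0.34), among 578 genes, of which 4.84% were higher. On that scale Pde6a and Pde6b turned to -0.23 and -0.20, with a median of all genes of -0.19. Without anti-ANG2 replicate 4, edgeR called Rcvrn and Nrl. All 15 rod cascade partners and all 15 outer segment genes had positive changes in edgeR and none of them was called (9 and 7 at an unadjusted p under 0.05). Of the bipolar cell genes all 8 had negative changes and 1 was called, Isl1 (168 ± 12.6 with IgG, 94.2 ± 12.6 CPM with anti-ANG2, edgeR adjusted p = 0.025). All 4 IgG retinas at P19 carried Y-linked transcripts (186 to 219 CPM), against 0.299 to 164 CPM with anti-ANG2. Mitochondrial transcripts took 4.11% to 6.2% of counts with IgG and 6.45% to 10.6% with anti-ANG2, and TMM factors were 0.903 to 1.02 and 0.743 to 0.986. The median log2 change was 0.27 over the genes with the shortest transcripts and -0.15 over those with the longest, of the same 4 length classes. Apart from the alternative fits given at the end, the part of these measures in the result was not tested. The anti-ANG2 age change and this comparison share the anti-ANG2 retinas at P19, and the 3 antibody comparisons of an age share their IgG retinas.

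Subunit ratios were taken within each library, where a scaling factor common to all genes cancels, but a change that depends on transcript length does not. In OIR against control at P19 the median log2 change was 0.21 over the shortest class of transcripts and -0.13 over the longest, and its part in the ratios was not tested. The longest annotated transcripts are 900 bases for Pde6g, 4588 for Pde6a, 2799 for Pde6b, 2739 for Cnga1 and 6189 for Cngb1. For Cngb1 this was not the length behind the TPM. In control retinas at P19 Cnga1 averaged 465 CPM and 266 TPM, and Cngb1 761 CPM and 724 TPM. The length by which Cngb1 was divided was thus shorter than that of Cnga1. Which transcripts of Cngb1 were counted was not tested. The ratio of summed Pde6a and Pde6b TPM to Pde6g TPM was 0.134, 0.126, 0.117 and 0.125 in the control retinas at P19, above all 4 IgG retinas at P19 (0.0616, 0.0785, 0.0673 and 0.112). The mean was 0.125 ± 0.00695 in control and 0.0797 ± 0.0224 in IgG retinas (SD, n = 4). The ratio of Cnga1 to Cngb1 TPM was 0.368 ± 0.0111 in control retinas at P19, the lowest mean of the 10 groups, and 0.489 ± 0.0271 in IgG retinas at P19, again without overlap. Both differences had a two-sided exact permutation p of 0.0286, the smallest that 4 against 4 retinas allow. These ratios were chosen after the data had been seen, and over the 26 ratio tests made none passed the correction (lowest adjusted p = 0.25). At that smallest p these differences alone could not have passed it, so the correction cannot decide on them. In anti-ANG2 retinas the phosphodiesterase ratio was 0.0559 ± 0.0147 at P19 and 0.0791 ± 0.0115 at P17 (exact permutation p = 0.0571, adjusted p = 0.25).

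**Figure D5:**
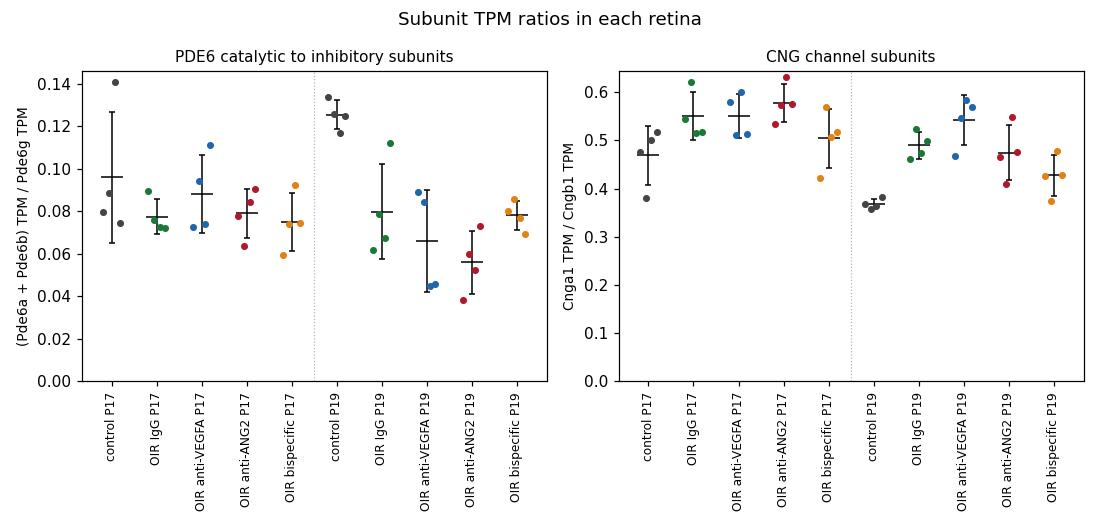
Ratios of subunit TPM in every retina (dots, axes from 0) with mean and SD of the 4 retinas of a group; left, summed Pde6a and Pde6b over Pde6g, right, Cnga1 over Cngb1. Control retinas at P19 have the highest mean on the left (0.125) and the lowest on the right (0.368).

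The 9 genes varied together over the 40 retinas in 2 looser sets. These correlations of log2 CPM are descriptions over libraries that share groups and library make-up. Pde6g and Rcvrn had a Pearson r of 0.97, and Pde6a and Pde6b one of 0.94 (0.97 and 0.90 after group means were removed). Between the sets the values were lower, at 0.34 for Pde6a with Pde6g and 0.15 for Pde6a with Cnga1. Gnat1 was close to both sides, at 0.80 with Pde6a and 0.80 with Rcvrn. Of the 5 genes outside the set with the pattern most like the mean of the 9, out of 11717 expressed genes, the 4 given here were Rom1 (0.98), Unc119 (0.97), Vtn (0.96) and Ankrd33 (0.95). Rom1 is a disc rim protein of the outer segment, and Vtn encodes the secreted protein vitronectin.

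RefSeq promoter sequences were at hand for 5 of the 9 genes (GRCm38.p6), and 3 are shown, 1 each for the response-ending (Sag), enzyme (Pde6b) and channel (Cngb1) steps. Over the 40 retinas Pde6b had an r of 0.50 with Sag and 0.60 with Cngb1. Each line gives the 250 bases before the annotated start site in the direction of transcription. Capitals mark a CRX-type motif (TAATCC, or GGATTA when read on the other strand) or an NRL-type core (TGCTGA, or TCAGCA), sought on both strands.
Sag, chr1:87803430-87803679, plus strand: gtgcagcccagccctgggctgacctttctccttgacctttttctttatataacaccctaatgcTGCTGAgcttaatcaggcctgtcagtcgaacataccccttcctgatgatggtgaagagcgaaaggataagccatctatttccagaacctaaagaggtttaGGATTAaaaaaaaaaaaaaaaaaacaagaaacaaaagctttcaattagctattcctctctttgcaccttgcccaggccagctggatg
Pde6b, chr5:108388123-108388372, plus strand: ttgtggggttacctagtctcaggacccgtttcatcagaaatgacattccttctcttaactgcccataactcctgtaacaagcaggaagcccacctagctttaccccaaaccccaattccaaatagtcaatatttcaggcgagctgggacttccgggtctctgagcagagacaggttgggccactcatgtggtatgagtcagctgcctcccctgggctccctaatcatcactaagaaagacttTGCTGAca
Cngb1, chr8:95306586-95306835, minus strand: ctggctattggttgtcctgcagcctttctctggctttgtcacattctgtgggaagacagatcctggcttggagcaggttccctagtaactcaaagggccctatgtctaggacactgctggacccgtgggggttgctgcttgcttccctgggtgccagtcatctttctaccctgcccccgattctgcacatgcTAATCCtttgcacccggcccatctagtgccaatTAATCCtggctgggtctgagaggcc
Sag held 1 NRL-type core 187 bases and 1 CRX-type motif 87 bases before the start site. Pde6b held 1 NRL-type core 8 bases before it, and Cngb1 held 2 CRX-type motifs, 58 and 25 bases before it. Of the 2 windows not printed, that of Cnga1 held 1 CRX-type motif 228 bases before its start site, and that of Nrl held no match. Among 32851 promoter windows of the same length, 6.25% held the CRX-type motif and 16.1% the NRL-type core. A match of letters is a description and does not show binding. The gene bodies follow at chr1:87803680-87845158 for Sag, chr5:108388391-108432397 for Pde6b and chr8:95239045-95306585 for Cngb1 in the GENCODE annotation of GRCm38.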

How the data were processed

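The authors deposited RSEM expected counts and TPM values for 42037 gene symbols in 40 libraries. Per the submitters' processing notes they used STAR 2.7.10a, RSEM 1.3.3 and genome build GRCm38.p4; the annotation and strand setting are not given in the sources used here. Each library was made from 1 whole retina with SMART-Seq mRNA and Nextera XT, per the labels' protocols. Total expected counts were 9155091 to 25835055 per library. Counts were rounded (15.7% of nonzero values were not whole) and fitted with edgeR 4.0.16 (R 4.3.3; TMM, robust quasi-likelihood, filter by group, all 10 groups). Genes were called at a Benjamini-Hochberg adjusted p under 0.05 within each of 14 comparisons, and 1 further comparison and the subunit ratios were added after seeing the data. DESeq2 1.42.0 and limma 3.58.1 on the deposited TPM, as log2(TPM + 1), were alternatives. The edgeR fit was run on counts simulated from its own estimate of the spread, for control retinas between the ages only. Those counts held no shift with transcript length, so this check cannot show how the fit fares with one. The p-values measure the spread between retinas, which may share mice. The members and lists were chosen with earlier results of these data known. From each other list, up to 3 called genes per comparison with the smallest p were named, along with the 5 genes most alike, of which 1 is not reported here. In no comparison did all 4 same-numbered pairs of retinas deviate together with a correlation above 0.1 (highest 0.15), so the numbers were not used as pairs.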

Additional observations from a re-analysis of the deposited data

Results flagged for a closer look

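Among 90 sets of 4 retinas (9 genes in 10 groups), 3 held a value far from the other 3 retinas, by a gap test that chance passes in about 1 set in 20. Gnat1 in anti-ANG2 replicate 1 at P19 was at 27458 CPM, with the others between 19758 and 20164 CPM. Cngb1 in bispecific replicate 1 at P17 was at 1033 CPM, with the others between 602 and 616 CPM, and Rcvrn in the same retina was at 4084 CPM, with the others between 2586 and 2735 CPM.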

How the results depend on the processing

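The number of rod genes called in control retinas between the ages (3) was 0 with pigment epithelium and lens covariates and 0 to 2 when 1 library was left out. For anti-ANG2 retinas between the ages (7) it was 4 with the Y-linked covariate, chosen after seeing the data, and 2 to 7 when 1 library was left out. For OIR with IgG against control (0 at both ages) it was 1 at P17 and 2 at P19 when the groups were fitted alone, and at P19 also 2 with limma on log2(TPM + 1) and on log2(TPM + 0.1), 1 with DESeq2, 1 without the 3 libraries with TMM factors under 0.8 or over 1.2 (chosen after seeing the data), and 0 to 1 when 1 library was left out. For anti-ANG2 against IgG at P19 (0) it was 2 on both TPM scales, 5 with DESeq2 and 0 to 2 when 1 library was left out. For bispecific retinas between the ages (0) it was 1 on both TPM scales, and for the anti-ANG2 age change against the IgG age change (0) it was 4 with DESeq2. All other counts of rod genes, including those with RLE factors and with no filter on low counts, stayed within 1.5 times. Counts of the other lists moved more. In anti-ANG2 retinas between the ages they ran over the alternatives, other than leaving out 1 library, from 4 to 12 for partners (11), 1 to 6 for transcription factors (1), 1 to 4 for cone genes (4) and 144 to 3994 for all genes (1135). In OIR at P17 the cone genes (3) ran from 0 to 4 and all genes (555) from 61 to 1062, and in control retinas between the ages all genes (23) ran from 19 to 142. With a replicate block the counts were 3 in control and 7 in anti-ANG2 retinas between the ages and 0 elsewhere; same-numbered retinas are not known to be paired, and the block changed no call of a rod gene.

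Signs turned on both TPM scales for Cngb1 (-0.07) and Sag (-0.08) in OIR at P17, for Cngb1 (-0.06) and Nrl (-0.14) in OIR at P19, for Pde6a (-0.23) and Pde6b (-0.20) with anti-ANG2 against IgG at P19, for Sag (-0.07) in control retinas between the ages, and for Pde6a (-0.19, or -0.20 with a pseudocount of 0.1) and Pde6b (-0.17) in anti-ANG2 retinas between the ages. Sag in control retinas was also at -0.02 without the 3 libraries. When 1 library was left out, ranges that crossed 0 were -0.03 to 0.18 (Cngb1) and -0.09 to 0.12 (Nrl) in OIR at P19, and -0.09 to 0.05 (Cnga1) and -0.03 to 0.22 (Sag) in control retinas. None of these values was called. In the remaining comparisons 36 of 870 member values turned sign under the other alternatives, none of them larger than 0.20 in size. The cause was not tested. With 4 retinas a group and 1 retina a library, small differences could not be resolved, and mice or litters shared by retinas cannot be told apart from group differences.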
